A study of Mus musculus with 24 samples.

Results

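The choroid plexus epithelium genes are a list of 35 mouse genes with known roles in, or marked expression by, the secretory epithelium of the brain ventricles. They were listed by name. A probe belonged to a gene when the array annotation gave it the listed symbol, and where a gene had several probes the brightest was used. Of the 35 genes, 34 had a probe and Mfrp had none, out of 19751 genes with a symbol and 39429 probes on the array.

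The study asked whether a methyl donor diet given to male mice alters hippocampal gene expression in their offspring and grand-offspring. C57BL/6J males were fed either a control diet (Envigo) or the diet 3MS ZM, which added L-methionine, choline, betaine, folic acid, vitamin B12 and zinc, for 6 weeks and were then mated with 129S6/SvEv females. Their offspring are the F1 mice (labelled congenic C57BL/6J x 129S6/SvEv hybrids), while the F2 mice (labelled mixed C57BL/6J x 129S6/SvEv hybrids) came from F1 sons of either diet line and F1 daughters of control diet fathers. All F1 and F2 mice ate the control diet themselves, so the diet belongs to the fathers of F1 and the grandfathers of F2. A group is named by the diet, CD for control or MD for methyl donor, followed by the generation. The labels give an age of 4 weeks, whereas the study's methods call the mice adult and describe balanced sex ratios. Each group had 6 arrays, and each array held cRNA from the pooled hippocampi of 4 mice, so differences between single animals are not visible. The F2 labels carry a further code without explanation, lh on replicates 1 to 3 and rh on replicates 4 to 6 of both diets.

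The choroid plexus is a folded tissue in the ventricles whose epithelium makes cerebrospinal fluid, moves ions and nutrients between blood and fluid, and secretes carrier proteins such as transthyretin, the product of Ttr. Tight junctions between its cells form the barrier between blood and cerebrospinal fluid. In the lateral ventricle the plexus is attached along the choroidal fissure, beside the fimbria of the hippocampus.

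The measurement was single-colour Agilent array intensity, given here as log2 of the background-subtracted signal after quantile normalization. Values per array and per group come from normalization within a generation, except that the mean level over the 26 genes named below and the summed signals of gene lists come from normalizing all 24 arrays together. The number of genes for which an array was highest or lowest, and ranges over all 24 arrays, come from that normalization too. The median intensity of an array lay between 148 and 318 before log2, and between 27383 and 37013 spots per array were well above background. Precision is limited by the small number of arrays in each group. The F1 arrays lay on slides 1 to 3 and the F2 arrays on slides 4 to 6, scanned on another day, so generation, slide and scan day cannot be told apart. Each slide held 2 arrays of each diet.

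Several arrays stood apart or resembled each other. By mean correlation with the other arrays of its generation, MD F1 replicate 6 was at 0.985, against 0.992 to 0.994 for the other F1 arrays. In F2, CD F2 replicate 6 was at 0.977 and MD F2 replicate 3 at 0.974, against 0.986 to 0.988 for the rest, and these arrays had the fewest spots well above background, 28000 and 27383. MD F2 replicates 4 and 5 differed less from each other than repeated spots on 1 array did: the SD of their difference was 0.107, against 0.119 within an array, over 278 probes printed 10 times. They were therefore counted as 1 sample, by their mean, which leaves 11 samples in F2 and 5 in MD F2. MD F2 replicates 1 and 3 came next (0.135 against 0.130 within an array) and were kept as separate samples. The following pair in F2 was at 0.216, the closest F1 pair at 0.178, and no pair of arrays was identical.

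The tissue label was compared with marker genes. Of 18 hippocampal markers, 17 were well above background on all 24 arrays, Tdo2 being the exception, and Zbtb20 was the brightest. The log2 of their summed signal lay between 16.98 and 17.11 in F1 and between 17.22 and 17.44 in F2. Of the 34 plexus genes, 26 were well above background on all 24 arrays, and each of the 34 was so on most of them. The others were Slc4a5, Cldn2, Aqp1 and Wfdc2 on 23 arrays, Cldn1, Col8a1 and Abca4 on 22 and Kcne2 on 20. The arrays below that mark were F2 arrays, so the F2 differences, slopes and ranges of these 8 genes rest partly on values near background. A level in hippocampal tissue does not separate fewer plexus cells from less RNA per cell, and the 2 cannot be told apart here.

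The plexus genes had wide ranges. Over the 24 arrays, the difference between the highest and the lowest array had a median of 4.11 log2 units across the 26 genes well above background throughout, against 1.18 across 24099 probes meeting the same condition. The 95th percentile of those probes was 2.97, which 20 of the 26 genes exceeded, and 10 of the 26 were among the widest 1 percent. With the 8 genes near background on some arrays counted too, these numbers were 28 and 18 of 34. Within F1 the median range was 3.01 (34 genes) against 0.64 for all probes, and within F2 it was 3.83 (26 genes) against 0.64. The range was wider in F2 than in F1 for 33 genes, the exception being Car14, with 1.30 in F1 and 1.28 in F2.

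**Figure D1:**
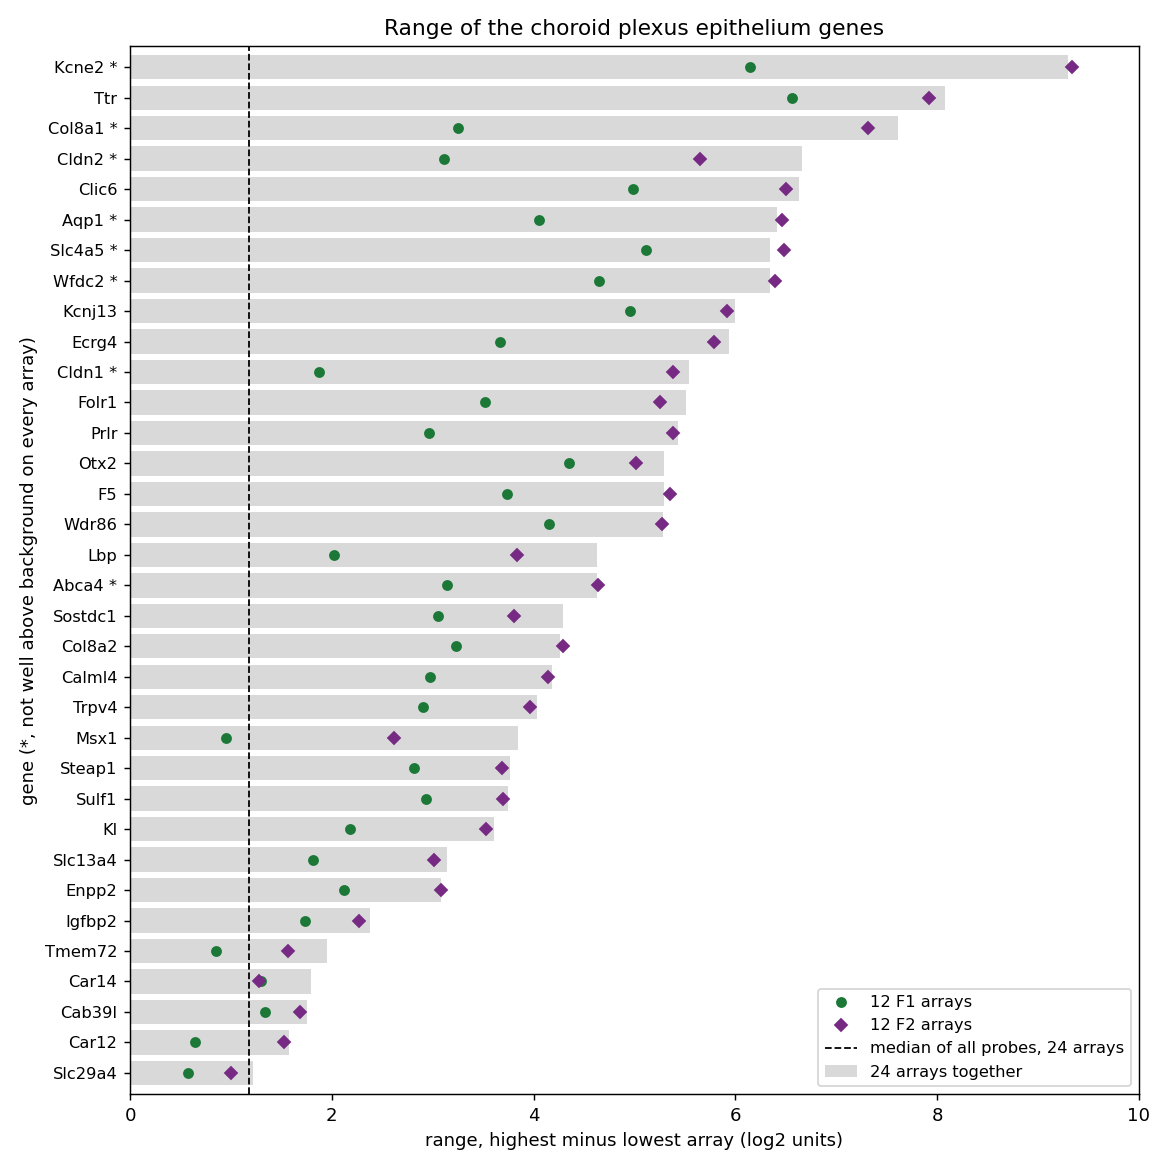
Range of each gene on the log2 scale (horizontal axis) over the 24 arrays (bars), the 12 F1 arrays (circles) and the 12 F2 arrays (diamonds), with the median of all probes dashed at 1.18. The order runs from Kcne2 at 9.30 to Slc29a4 at 1.22, and an asterisk marks a gene not well above background on every array.

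In order of range over the 24 arrays, Kcne2 came first at 9.30, although its lowest values lay near background. Ttr followed at 8.08 log2 units, a 271-fold difference, while well above background on all arrays. Next came Col8a1 (7.61), Cldn2 (6.66), Clic6 (6.63), Aqp1 (6.41), Slc4a5 and Wfdc2 (both 6.34), Kcnj13 (6.00) and Ecrg4 (5.94). Col8a1 was lowest on CD F2 replicate 6, at 1.36 and not well above background, and its next lowest value was 3.89. These 10 widest genes were the same with scaling to the 75th percentile, with no scaling and in the authors' own table, but 6 of the 10 stayed with the normexp background correction and 9 without CD F2 replicate 6, an array that stood apart. The middle of the order held Cldn1 (5.54), Folr1 (5.51), Prlr (5.43), Otx2 (5.29), F5 (5.29), Wdr86 (5.28), Lbp and Abca4 (both 4.63), Sostdc1 (4.29), Col8a2 (4.26), Calml4 (4.18) and Trpv4 (4.03). Below 4 log2 units were Msx1 (3.85), Steap1 (3.77), Sulf1 (3.75), Kl (3.61), Slc13a4 (3.14), Enpp2 (3.08) and Igfbp2 (2.38). The range of Msx1 was 0.95 within F1 and 2.62 within F2, and that of Lbp 2.02 and 3.84. For Msx1 and Lbp the place in the order thus includes a difference between generations, which cannot be told apart from slide and scan day. The narrowest were Tmem72 (1.95), Car14 (1.79), Cab39l (1.75), Car12 (1.58) and Slc29a4 (1.22). The first 4 of these lay among the widest 17.9 to 29.4 percent of probes, and Slc29a4 was near the median, with 47.7 percent of probes wider.

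Ttr, the most used marker of this epithelium, encodes a carrier of thyroxine and of retinol-binding protein. In CD F1 its log2 signal was 16.29, 15.23, 15.25, 11.10, 16.55 and 16.40 on replicates 1 to 6. In MD F1 it was 16.61, 16.29, 17.33, 11.11, 17.66 and 14.58. Replicate 4 of each diet was thus low, both on slide 3, and the other 10 F1 arrays lay between 14.58 and 17.66 with the diets overlapping. In CD F2 the values were 17.96, 17.86, 17.79, 10.04, 17.46 and 11.46, and in MD F2 14.24, 17.59, 14.22, 10.82, 10.73 and 11.00. The F2 arrays fell into 5 high arrays (17.46 to 17.96), an intermediate pair (14.22 and 14.24, the pair of replicates 1 and 3 named above) and 5 low arrays (10.04 to 11.46). All 3 lh arrays of CD F2 were high and all 3 rh arrays of MD F2 were low, and each diet had arrays in both sets. Group means were 15.14 ± 2.06 in CD F1 and 15.60 ± 2.45 in MD F1 (SD, n = 6 each), and 15.43 ± 3.65 in CD F2 (n = 6) and 13.57 ± 2.80 in MD F2 (n = 5).

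**Figure D2:**
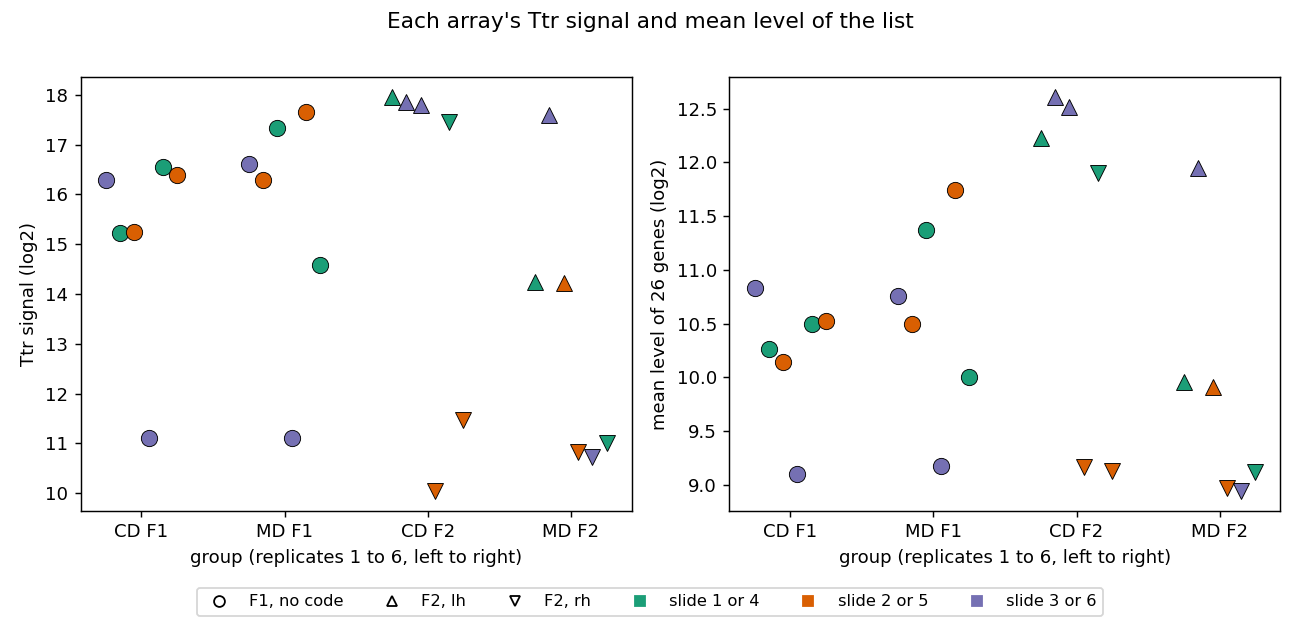
Log2 signal of Ttr (left) and mean log2 level of the 26 genes well above background on all arrays (right), 1 point per array, in replicate order within each group, with shape for the F2 code and colour for the slide. Replicate 4 was the lowest array of both F1 groups for Ttr, and in F2 the arrays formed high and low sets within each diet, with an intermediate pair in MD F2.

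The mean level over the 26 genes had the same shape. It was 10.23 ± 0.60 in CD F1 and 10.59 ± 0.93 in MD F1 (SD, n = 6 each), with arrays from 9.10 to 10.83 and from 9.17 to 11.74. It was 11.26 ± 1.65 in CD F2 (n = 6, 9.13 to 12.61) and 9.98 ± 1.19 in MD F2 (n = 5, 8.96 to 11.95). Array MD F1 replicate 5 was the highest F1 array for 31 of the 34 genes, and the lowest was MD F1 replicate 4 for 15 genes and CD F1 replicate 4 for 14. Among F2 arrays, CD F2 replicate 2 was highest for 21 genes, CD F2 replicate 3 for 9 and CD F2 replicate 1 for 3. The lowest F2 array was MD F2 replicate 4 for 11 genes and CD F2 replicate 4 for 8.

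**Figure D3:**
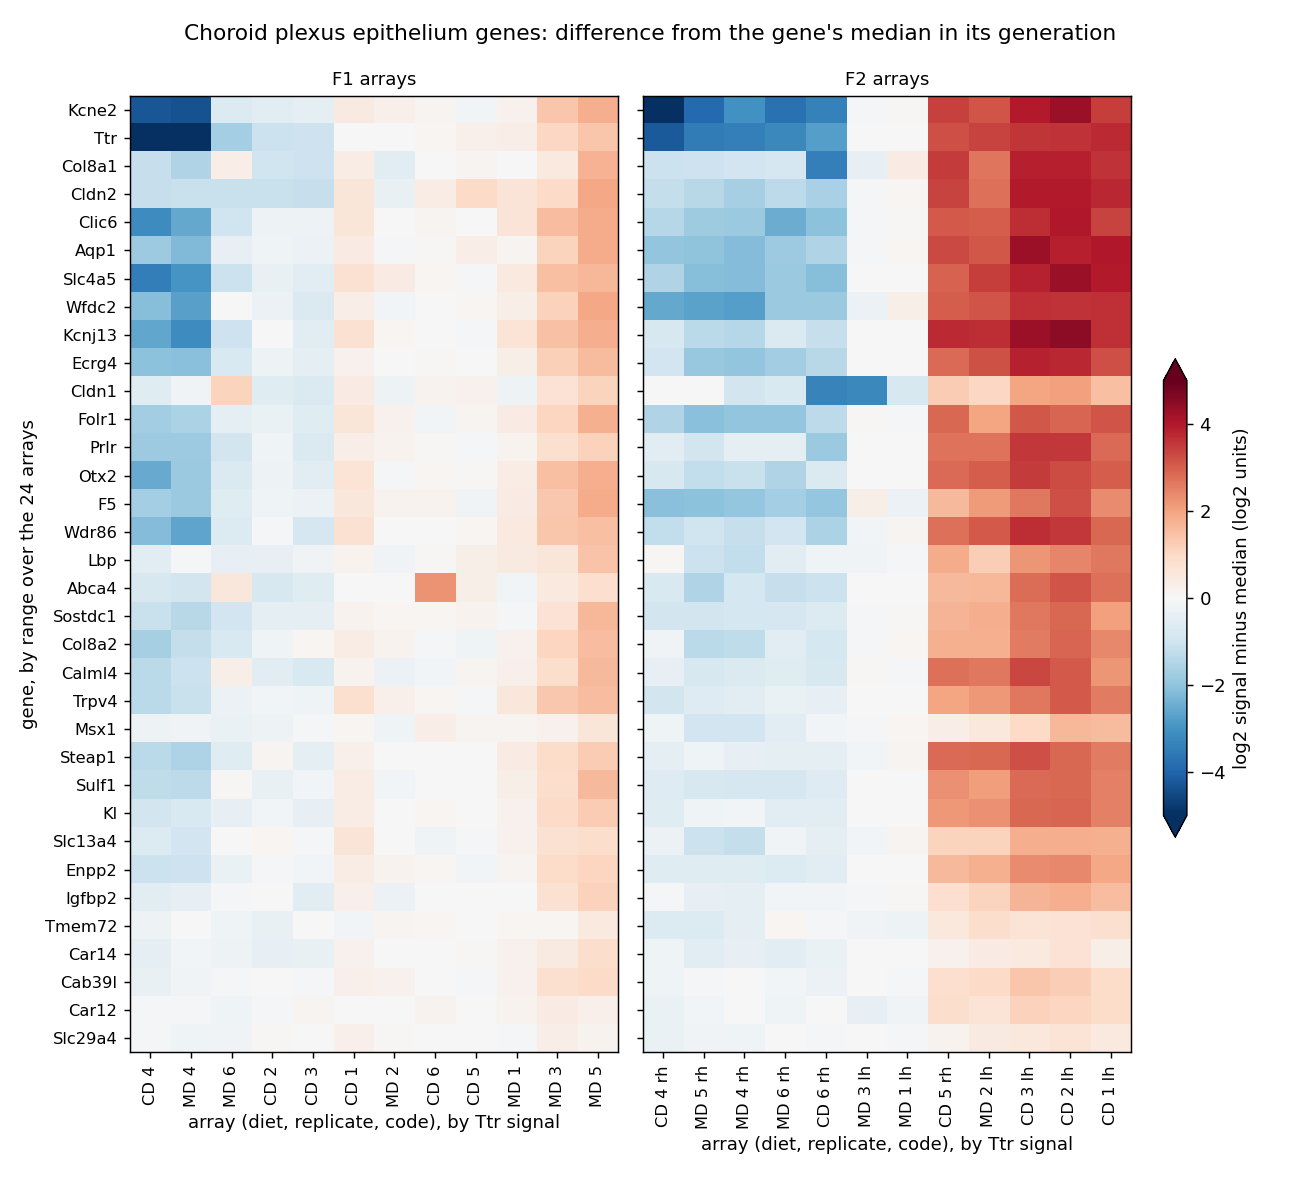
Difference of each array from the gene's median in its generation (colour, log2 units), with genes ordered by range over the 24 arrays and arrays ordered by Ttr signal within F1 (left) and F2 (right). The same arrays are low and high for most genes, with Ttr running from 11.10 to 17.66 in F1 and from 10.04 to 17.96 in F2.

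The relation to Ttr was fitted with limma on all probes within each generation, with diet in the model. The slope is the log2 difference in a gene's signal per log2 unit of Ttr, and a probe was called when its false discovery rate over all probes was under 0.1. In F1, 19 of the 33 other genes were called, all rising with Ttr, against 0.226% of 39428 probes called (0.203% rising). At unadjusted p under 0.05 the count was 31 of 33, against 4.23% of probes. Without MD F1 replicate 4, 9 of the 33 genes and 38 probes were called, and without CD F1 replicate 4 17 genes and 131 probes. Any other single array left out gave 17 to 19 genes and 69 to 94 probes. Without both replicate 4 arrays, the farthest from the median Ttr signal, 21 genes were called at a median slope of 0.50, but 1436 probes were called as well. Without MD F1 replicate 6, which stood apart, it was 19 genes and 94 probes. In F2, 32 of 33 genes were called, all rising, against 0.695% of probes (0.647% rising), and 33 had p under 0.05, against 8.31%. With no scaling, 33 genes were called in F2, but 1020 probes were as well (1007 rising), and the median slope over all probes was 0.06. With quantile normalization the gene not called was Cldn1 (FDR 0.559). Without the pair of F2 arrays that stood apart, 29 genes and 246 probes were called, and without the 2 arrays farthest from the median Ttr signal 25 were, with 88 probes. The median slope over the genes was 0.33 in F1 and 0.46 in F2, and over all probes it was -0.00 in both with quantile normalization. All 33 slopes were positive in both generations, with each scaling tried. The arrays form clusters in Ttr signal, so a slope and its FDR over all arrays of a generation reflect differences between clusters as well as within them.

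Replicate number shared by arrays of both diets was also entered as a block. The labels tie that number to no batch or litter, though in F2 the code follows it. With this block 0 of 33 genes were called by limma in either generation. At unadjusted p under 0.05 were 23 in F1 (12.1% of probes) and 28 in F2 (5.04%). The 33 slopes were still positive, with a median of 0.51 in F1 and 0.62 in F2, and 0 probes were called. The merged sample of MD F2 replicates 4 and 5 counted equally toward the blocks of both numbers. With slide as a block, 14 genes and 43 probes were called in F1, and 17 genes and 46 probes in F2, where 1 slope was below 0. With the lh or rh code as a further term, 21 genes and 104 probes were called in F2.

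The arrays themselves recurred from gene to gene. Both arrays lowest for Ttr in F1 (replicate 4 of each diet) were also the lowest pair for 24 of the 33 other genes, against 1.26% of 29618 probes well above background on all F1 arrays. The 5 arrays highest for Ttr in F2 were also the 5 highest for 25 of the 25 other genes well above background on all F2 arrays, against 2.17% of 23935 probes. Because of the clusters, no correlation coefficient over all arrays of a generation is given as a result. Within the cluster of the 10 upper F1 arrays, correlations with Ttr were computed for the 11 other genes among the 12 that had the widest ranges while well above background throughout. The highest by Pearson's r was Prlr, with r 0.938 (permutation p 0.000150) and Spearman's rho 0.794 (permutation p 0.00917). The lowest by r was Col8a2, with r 0.845 (permutation p 0.00241) and rho 0.770 (permutation p 0.0126). By rho the highest was Lbp, given below, and the lowest Kcnj13, at 0.733 (permutation p 0.0205). Benjamini-Hochberg values over the 11 relations were at most 0.00241. Without the 2 arrays farthest from the median Ttr signal, MD F1 replicates 5 and 6, r was 0.855 for Prlr (permutation p 0.0110). For Col8a2 it was 0.639 (permutation p 0.0954). These values rest on 8 arrays and a narrower range of Ttr signal. No F2 cluster held 6 samples, so no correlation is given there.

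**Figure D4:**
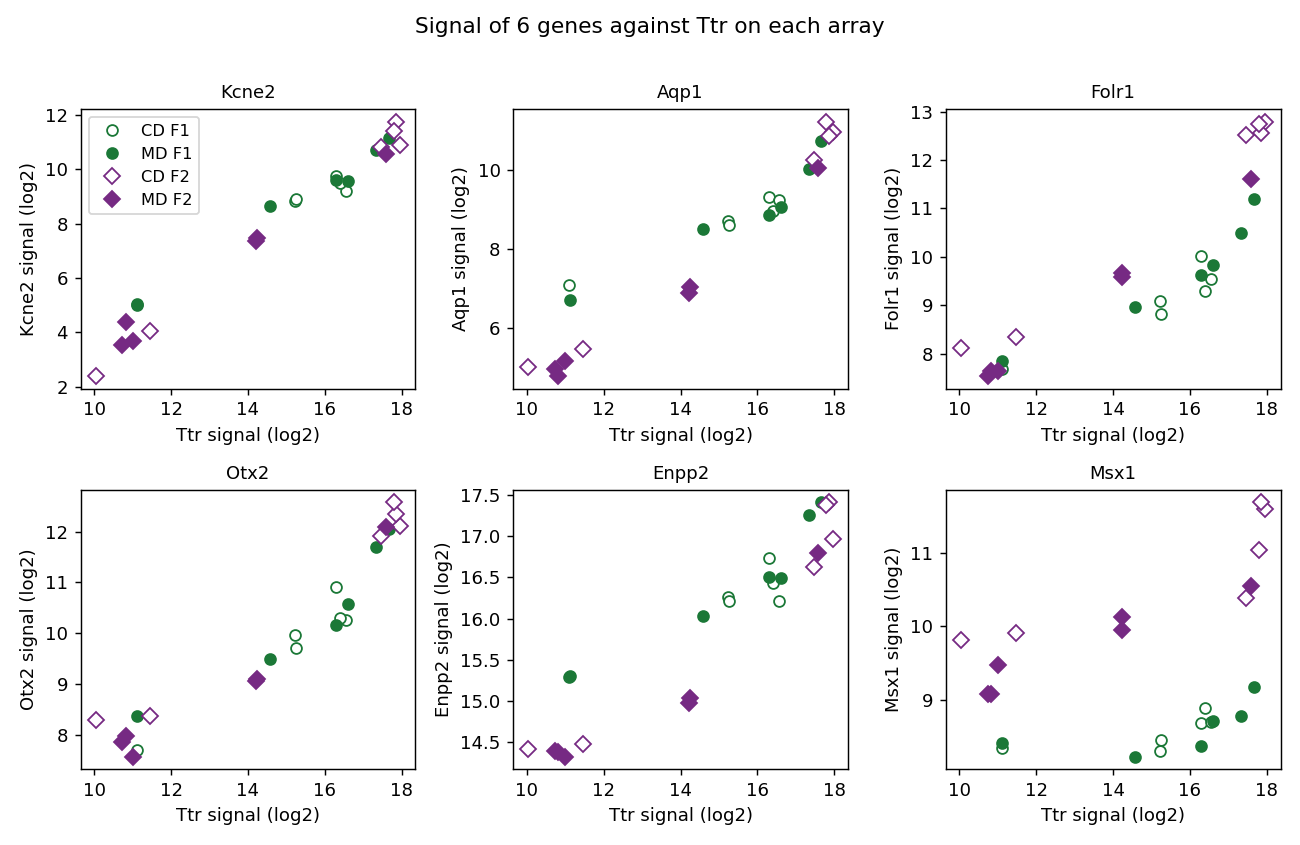
Log2 signal of 6 genes (vertical axes) against that of Ttr (horizontal axes), 1 point per array, with colour and shape for generation and filled points for MD. The slopes from limma were 0.87 in F1 and 1.10 in F2 for Kcne2, whose lowest F2 values were near background, and 0.08 and 0.19 for Msx1.

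Among the secreted and carrier proteins, Ecrg4 encodes a secreted peptide precursor. Its lowest, median and highest log2 signals were 9.51, 11.46 and 11.81 in CD F1 and 9.49, 11.71 and 13.16 in MD F1. They were 8.44, 12.87 and 13.68 in CD F2 and 7.92, 9.82 and 13.01 in MD F2. The low F1 ends were replicate 4 of each diet, and the groups overlapped. The slope on Ttr was 0.48 in F1 (SE 0.0418, FDR 0.000901) and 0.67 in F2 (SE 0.0470, FDR 0.000197). F5, the gene for coagulation factor V, ran from 6.35 over a median of 7.88 to 8.62 in CD F1 and from 6.20 over 8.35 to 9.93 in MD F1. In F2 it ran from 5.23 over 9.33 to 10.57 in CD and from 5.35 over 7.05 to 9.44 in MD. As with Ecrg4, the groups overlapped and the slopes passed the test (0.45 in F1, FDR 0.00435, and 0.62 in F2, FDR 0.000197). Sostdc1 encodes a secreted antagonist of BMP and Wnt signals. Its signals were 8.49, 9.44 and 9.81 in CD F1 and 8.21, 9.61 and 11.26 in MD F1, then 8.30, 11.11 and 12.10 in CD F2 and 8.33, 9.18 and 11.04 in MD F2. Its slope was called in both generations, at 0.33 in F1 (FDR 0.0760) and 0.42 in F2 (FDR 0.000692). Lbp encodes the lipopolysaccharide-binding protein. It ran from 6.83 over 7.35 to 7.68 in CD F1, from 7.01 over 7.60 to 8.85 in MD F1, from 8.26 over 10.51 to 11.10 in CD F2 and from 7.34 over 8.30 to 9.71 in MD F2. Lbp was called in relation to Ttr in F2 (0.32, FDR 0.00101) and not in F1 (0.16, FDR 0.998). Over the 10 upper F1 arrays alone its r with Ttr was 0.888 (permutation p 0.000230) and its rho 0.976 (permutation p 6.00e-05), and r was 0.893 without MD F1 replicates 5 and 6 (permutation p 0.00174). Of the others, Enpp2, which encodes autotaxin, had slopes of 0.27 and 0.36, called in both generations. Wfdc2, a secreted protein with protease inhibitor domains, had 0.53 and 0.80, called in both, and Kl, which encodes klotho, had 0.24 and 0.42, also called in both. Igfbp2, a binding protein of insulin-like growth factors, had 0.16 in F1, not called, and 0.21 in F2, called.

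Of the receptors, Folr1 encodes the folate receptor that carries folate into the cerebrospinal fluid. Its lowest, median and highest signals were 7.68, 9.19 and 10.02 in CD F1 and 7.85, 9.74 and 11.20 in MD F1. In F2 they were 8.11, 12.54 and 12.79 in CD and 7.60, 9.59 and 11.60 in MD. The slope of Folr1 in F2 was 0.61 (SE 0.0194, FDR 8.38e-07), level with Kcne2 as the lowest FDR of the list, and in F1 it was 0.41 (FDR 0.00410). Prlr, the prolactin receptor, ran from 8.52 over 10.22 to 10.67 in CD F1 and from 8.52 over 10.50 to 11.48 in MD F1. In F2 it ran from 6.37 over 10.98 to 11.75 in CD and from 7.52 over 8.20 to 10.92 in MD. Both of its slopes were called, 0.40 in F1 (FDR 0.00151) and 0.55 in F2 (FDR 0.00897). Trpv4, an osmosensitive cation channel treated here with the receptors, had slopes of 0.35 and 0.43, called in both generations.

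Channels, transporters and enzymes include the potassium channel gene Kcnj13 and the chloride channel gene Clic6. Kcnj13 had lowest, median and highest signals of 7.79, 10.34 and 11.12 in CD F1 and 7.22, 10.76 and 12.18 in MD F1. Its F2 signals were 6.84, 11.68 and 12.46 in CD and 6.58, 7.97 and 11.69 in MD. In MD F2 a single array, replicate 2, was at the level of the high CD F2 arrays. Its slopes were 0.65 in F1 (FDR 0.000822) and 0.69 in F2 (FDR 0.000931). Clic6 ran from 7.55 over 10.57 to 11.31 in CD F1, from 8.12 over 11.03 to 12.54 in MD F1, from 7.41 over 12.70 to 13.49 in CD F2 and from 6.99 over 9.43 to 12.50 in MD F2. The groups again overlapped, with slopes of 0.65 in F1 (FDR 0.000308) and 0.74 in F2 (FDR 0.000197). Kcne2, a subunit that modulates potassium channels, had slopes of 0.87 (SE 0.0431, FDR 1.84e-05) and 1.10 (SE 0.0347, FDR 8.38e-07). Its F2 values of 2.40, 4.04, 3.54 and 3.68 (CD F2 replicates 4 and 6, MD F2 replicates 5 and 6) were not well above background, so the size of its F2 slope is uncertain. The sodium bicarbonate cotransporter gene Slc4a5 had 0.70 and 0.78, and the water channel gene Aqp1 had 0.48 and 0.77, all called. The remaining members of this class were called in F2 only: the sulfate transporter gene Slc13a4 (0.21 and 0.27), the monoamine transporter gene Slc29a4 (0.06 and 0.09), the carbonic anhydrase genes Car12 (0.05 and 0.15) and Car14 (0.11 and 0.11) and the ABC transporter gene Abca4 (0.24 and 0.47). Whether those slopes differ between generations was not tested.

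The tight junction genes are Cldn1 and Cldn2, whose claudins seal the space between the cells or let cations pass. Cldn2 had a slope of 0.38 in F1, not called, and 0.68 in F2, called, while Cldn1 was called in neither (0.12 and 0.35). On the F2 arrays that stood apart Cldn1 was at 1.66 (CD F2 replicate 6) and 1.78 (MD F2 replicate 3), and its next lowest F2 value was 4.07. Among the transcription factors, Otx2 encodes a homeodomain factor needed for the plexus to form and persist. Its lowest, median and highest signals were 7.70, 10.11 and 10.91 in CD F1 and 8.36, 10.38 and 12.05 in MD F1. In F2 they were 8.28, 12.02 and 12.58 in CD and 7.57, 9.05 and 12.09 in MD. The Otx2 slopes passed the test, 0.52 in F1 (SE 0.0539, FDR 0.00194) and 0.57 in F2 (SE 0.0398, FDR 0.000197). Msx1, the other homeodomain factor, had slopes of 0.08 in F1, not called, and 0.19 in F2, called.

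Col8a2, a chain of type VIII collagen, ran from 6.97 over 8.48 to 9.02 in CD F1 and from 7.44 over 8.83 to 10.19 in MD F1. In F2 it ran from 6.61 over 9.55 to 10.40 in CD and from 6.15 over 7.39 to 9.24 in MD. Its slopes were 0.36 in F1 (FDR 0.0204) and 0.40 in F2 (FDR 0.00346). Col8a1, the other chain, had 0.30 in F1, not called, and 0.71 in F2, called, and Sulf1, which removes sulfate from heparan chains, had 0.32 and 0.44, called in both. Among genes of less settled role in this tissue, Wdr86 encodes a WD repeat protein. It ran from 7.67 over 9.81 to 10.61 in CD F1, from 7.20 over 10.05 to 11.35 in MD F1, from 6.12 over 10.53 to 11.39 in CD F2 and from 6.64 over 7.56 to 10.77 in MD F2. The slopes of Wdr86 were 0.55 in F1 (FDR 0.00150) and 0.62 in F2 (FDR 0.000850). The metalloreductase gene Steap1 was called in both generations (0.35 and 0.46). Calml4 (0.29 and 0.47), Tmem72 (0.05 and 0.15) and Cab39l (0.12 and 0.17) were called in F2 and not in F1.

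The F1 diet comparison, MD F1 minus CD F1, asks for an effect of the father's diet. Limma called 0 of the 34 genes, against 0.0330% of 39429 probes (13), and 0 genes had unadjusted p under 0.05, against 14.4% of probes. For Ttr the difference was 0.46 (SE 1.19, FDR 0.873), smaller than the spread within either group. It was higher in MD for 33 of 34 genes, the exception being Slc29a4 at -0.01, but for 32 genes with scaling to the 75th percentile and for 24 with no scaling, where the median of all probes was -0.28 and 7952 probes were called. The median over the genes was 0.40 (0.12 with no scaling), against 0.01 over all probes, and the highest was Calml4 at 0.70. That median was 0.15 without CD F1 replicate 4 or MD F1 replicate 5, 0.23 without MD F1 replicate 3 and 0.71 without MD F1 replicate 4. With a sex measure as a covariate (Y-linked genes minus Xist), it was 0.95 and Ttr was at 1.66, with 0 genes called by limma and 10 at unadjusted p under 0.05 (9.94% of probes). Within slides the Ttr difference was 0.07, 1.15 and 0.16 on slides 1, 2 and 3, and the median over the genes was 0.36, 0.97 and -0.02. The sign for Ttr turned on 1 array: without CD F1 replicate 4 the difference was -0.35, and without MD F1 replicate 4 it was 1.36. Without MD F1 replicate 6, 0 genes were called by limma and 3 had p under 0.05 (14.4% of probes). The median was then 0.50 and Ttr was at 0.66. Without MD F1 replicate 4, 0 genes were called by limma and 4 had p under 0.05 (15.0% of probes). An exact permutation test of Ttr over 924 arrangements gave a two-sided p of 0.647, with 0.00216 the smallest it can give.

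The F2 diet comparison asks for an effect of the grandfather's diet. Limma called 0 of 34 genes, against 0% of 39423 probes (0), and 2 genes had unadjusted p under 0.05, against 4.19% of probes. Those were Lbp at -1.64 (SE 0.613, FDR 0.978) and Msx1 at -0.91 (SE 0.408, FDR 0.978). The difference for Ttr was -1.86 (SE 1.84, FDR 0.981), about the size of its error, and ran from -2.94 without CD F2 replicate 4 to -1.21 without MD F2 replicate 6. All 34 genes were lower in MD F2 with each scaling tried, from -2.17 for Aqp1 to -0.21 for Slc29a4, with a median of -1.44 against 0.01 over all probes. With no scaling the median over all probes was -0.07. The number with p under 0.05 varied with the fit, at 0 called by limma throughout: 23 with slide as a block (5.62% of probes), 24 with the code as a term (5.49%) and 28 with a replicate block (4.20%). It was 18 without CD F2 replicate 6 (5.05%), 14 without CD F2 replicate 4 (5.20%), 13 without MD F2 replicate 2 (5.59%), and 1 or 2 without any other array. Within slides the direction was not constant: the Ttr difference was -5.09 on slide 4, 1.77 on slide 5 and -3.66 on slide 6, and the median over the genes was -2.83, 0.27 and -2.40. The lh and rh codes were balanced over the diets on slide 4 only. On slide 5 the only lh array was MD, and on slide 6 the only rh array was MD, so those differences mix diet with code. Without the pair of F2 arrays that stood apart, limma called 0 genes, 7 had p under 0.05 (4.21% of probes), the median was -1.93 and Ttr was at -2.83. An exact permutation test of Ttr over 462 arrangements gave a two-sided p of 0.398, with 0.00216 the smallest it can give.

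Whether the diet effect differed between generations was tested with all 24 arrays in 1 fit, as the F1 difference minus the F2 difference. Limma called 0 of 34 genes, against 0.0127% of 39423 probes (5), and 7 genes had unadjusted p under 0.05, against 7.47% of probes. These were Calml4, Lbp, Msx1, Car12, Car14, Igfbp2 and Cab39l, the largest being Calml4 at 2.15 (SE 1.02, FDR 0.662). For Ttr the value was 2.33 (SE 2.24, FDR 0.848), and for all 34 genes it was above 0 with each scaling, with a median of 1.88 against -0.01 over all probes. With no scaling the median over all probes was -0.20, and 1 gene had p under 0.05 by limma (5.29% of probes). With the normexp background correction 13 genes did (7.60%). Without the 3 arrays that stood apart, 0 genes were called by limma, 22 had p under 0.05 (8.15% of probes) and the median was 2.53. Leaving out 1 array at a time gave 0 called and 1 to 27 at p under 0.05: 27 without CD F2 replicate 6, 25 without MD F2 replicate 2, 23 without CD F2 replicate 4 and 14 without MD F1 replicate 4, with 7.79% to 9.19% of probes in these 4 fits, and at most 9 genes otherwise. The p under 0.05 count was 25 with slide as a block (8.82% of probes), 28 with a replicate block (7.61%) and 5 with the sex measure (8.14%).

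The lh and rh codes of the F2 arrays were compared as rh minus lh with diet in the model. With the near-duplicate arrays kept separate, all lh arrays lay above all rh arrays within both diets for 26 of the 34 genes, against 0.770% of 39373 probes. Ttr was among them. So were Kcne2, Slc4a5, Cldn2, Aqp1, Col8a1, Wfdc2 and Abca4, which were near background on some arrays. These are therefore not the same 26 genes as those well above background on all arrays. Limma nevertheless called 0 of 34 genes, against 0% of 39423 probes (0), while 32 genes had unadjusted p under 0.05, against 6.40% of probes. The exceptions were Cldn1 and Car12. All 34 genes were lower in rh with each scaling, from -4.69 for Ttr to -0.43 for Slc29a4 among the 26 genes well above background on all arrays, with a median over the 34 of -2.03 against 0.01 over all probes. With no scaling the median over all probes was -0.27. Kcne2 was at -5.16, a size that is uncertain because 4 of its 6 rh values were not well above background. The difference for Ttr had an SE of 1.22 and an FDR of 0.562. Lowest in FDR was Msx1, at -1.21 (SE 0.190, FDR 0.304). When the near-duplicate arrays were counted as separate samples, Msx1 was called (FDR 0.0963), as 1 of 10 probes in all.

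Within CD F2 the Ttr difference between codes was -4.88 (SE 1.91), with 0 genes called by limma and 30 at p under 0.05, against 5.59% of probes. Within MD F2 it was -4.46 (SE 1.18), with 0 called and 10 at p under 0.05, against 6.55%. An exact permutation test of Ttr within diets, on the mean of the differences in both diets (-4.67), gave a two-sided p of 0.00500 over 200 arrangements. That is the smallest it can give, and the Benjamini-Hochberg value over the 3 Ttr tests was 0.0150. The test counted MD F2 replicates 1 and 3, the next closest pair, as separate samples, and fewer samples would raise its smallest p. Ttr was also chosen with earlier results of these data known. With both alike pairs as 1 sample each, limma gave Ttr at -4.94 (SE 1.30, FDR 0.618). The code was uneven over slides: slide 4 held 2 lh and 2 rh arrays, slide 5 held 1 and 3, and slide 6 held 3 and 1. Within slides 4, 5 and 6 the plain Ttr difference, without diet in a model, was -1.87, -3.45 and -7.01, and the median over the genes was -0.63, -0.74 and -3.80. The only lh array of slide 5 (MD F2 replicate 3) and the only rh array of slide 6 (MD F2 replicate 5) were both MD. The values of slides 5 and 6 thus rest on 1 array of a code and mix diet with code. With slide as a block Ttr was at -3.50 (SE 1.13), 0 genes were called by limma, 23 had p under 0.05 (16.3% of probes) and the median was -1.28. Without the F2 arrays standing apart, 0 were called by limma, 32 had p under 0.05 (6.69% of probes) and Ttr was at -4.54. The meaning of the code is not given, and what lies behind these differences was not tested.

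Slides were compared within each generation with limma's F-test, with diet in the model, and the range between slide means is the difference given. In F1 it called 0 of 34 genes, against 0% of 39428 probes (0), and 0 genes had unadjusted p under 0.05, against 5.86%. The Ttr means of CD and MD arrays were 15.89 and 15.96 on slide 1, 15.82 and 16.97 on slide 2, and 13.70 and 13.86 on slide 3, which held both low arrays. In F2, limma called 0 of 34 genes, against 0.0736% of 39422 probes (29), and 25 genes had p under 0.05, against 8.86%. The Ttr means of CD and MD arrays were 17.71 and 12.62 on slide 4, 10.75 and 12.52 on slide 5, and 17.82 and 14.16 on slide 6. The median range between slides over the genes was 2.55 in F2, against 0.25 over all probes (0.55 with no scaling), and 0.78 in F1, against 0.17. The F1 value ran from 0.39 without MD F1 replicate 4 to 1.21 without CD F1 replicate 1, where limma called 0 genes and 6 had p under 0.05 (5.53% of probes). With the sex measure in F1, limma called 0 and 17 had p under 0.05 (6.71% of probes). These F2 counts treat the 12 arrays as separate, because the near-duplicates lay on slides 5 and 6. With them as 1 sample, Car12 was called (1.21, FDR 0.0861), 33 genes had p under 0.05 (14.5% of probes) and 301 probes were called. Without MD F2 replicate 4, 1 gene and 457 probes were called and 16 genes had p under 0.05 (18.6% of probes). The count of 25 fell to 1 without CD F2 replicate 4 and to 1 without CD F2 replicate 6, both low arrays on slide 5. It was 6 without MD F2 replicate 2, 7 without CD F2 replicate 3, 8 without CD F2 replicate 2 and 18 to 34 without each of the rest, with 4.94% to 11.6% of probes in these 11 fits. Without the F2 arrays that stood apart, limma called 0 genes and 17 had p under 0.05 (4.82% of probes).

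Other genes and cell types were followed with lists of their markers, to be read against the shares of all probes given above: 0.226% called with Ttr in F1 and 0.695% in F2, and 4.23% and 8.31% at unadjusted p under 0.05. Of 33 further plexus genes with a probe that are not on the list, 5 were called as rising with Ttr in F1 (Slco1a5, Cldn3, Lmx1a, Rdh5 and Krt18) and 16 in F2. The log2 of the summed signal of the listed plexus genes varied by 2.64 over F1 and 3.56 over F2, and that of the further plexus genes by 0.63 and 1.11. Such a sum follows the brightest genes of a list. Enpp2 was the brightest of the listed genes, with a range of 3.08 over the 24 arrays, and Slc12a2 of the further genes, with 1.06. The median range over the 24 arrays was 4.63 for the listed and 1.90 for the further genes. Of 19 ependymal and motile cilia genes, 0 were called with Ttr by limma in F1, with 6 at unadjusted p under 0.05, and 7 in F2: Cfap126, Mia, Dynlrb2, Tctex1d4, Tekt1, Rsph1 and Pifo. Their summed signal varied by 0.81 and 1.13, with Fam183b the brightest. The cilia genes were also followed by diet, with quantile normalization and no other scaling tried for them. In the F1 diet comparison 0 of 19 were called by limma and 8 had p under 0.05, all higher in MD, against 14.4% of probes. In the F2 diet comparison 0 were called and 7 had p under 0.05, all lower in MD, against 4.19%. In diet by generation 13 had p under 0.05, against 7.47%, with a median of 0.97, and Ccdc153 was called (1.14, FDR 0.0982). The study had listed Ccdc153 as changed in F1 from these same arrays, and the list was chosen with earlier results known. These counts are therefore not independent of those results. Of the 33 further plexus genes, limma called 0 in these comparisons. At p under 0.05 were 6 in F1 (3 higher and 3 lower in MD), 5 in F2, all lower, and 10 in diet by generation. In the code comparison limma called 0 genes of these lists. At p under 0.05 were 22 of the 33 further plexus genes and 7 of the 19 cilia genes, all lower in rh, against 6.40% of probes. Their part in the plexus differences was not tested.

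The lists of neighbouring cell types and regions had 0 genes called with Ttr by limma in either generation. The 12 meningeal and stromal genes had 1 at unadjusted p under 0.05 in each generation and a summed signal varying by 1.02 in F1 and 0.82 in F2, with Dcn the brightest. The 9 endothelial genes had 0 and 2 at p under 0.05 by limma, and their sum varied by 0.33 and 0.32, with Ly6c1 the brightest. The 13 thalamic genes had 0 and 2, both falling with Ttr, with sums varying by 0.60 and 0.63 and Cplx1 the brightest. With the 24 arrays normalized together, the thalamic sum lay between 14.09 and 14.70 in F1 and between 15.96 and 16.59 in F2, so the generations did not overlap. The striatal sum also did not overlap, at 13.54 to 13.94 in F1 and 14.05 to 14.64 in F2, nor did the hippocampal sum given above. Ranges over all 24 arrays include such differences between generations, and their part in the plexus ranges was not tested. The 10 striatal genes had 1 in F1, rising with Ttr, and 4 in F2, 1 rising and 3 falling. Their sums varied by 0.39 and 0.59, with Ppp1r1b the brightest. On the meningeal, endothelial and hippocampal lists the genes under 0.05 all rose with Ttr. The 18 hippocampal genes had 0 and 2, with sums varying by 0.13 and 0.22. The summed plexus signal, which follows its brightest genes, thus had the widest range of these lists in both generations, a difference that was not tested. In the code comparison limma called 0 genes of these lists, against 6.40% of probes at p under 0.05. Under 0.05 were 3 meningeal, 1 endothelial and 1 thalamic gene, all lower in rh, and 2 striatal genes. Of the striatal genes, 1 was lower in rh, Ppp1r1b at -0.60, and 1 was higher. What part dissection, cell number or these other tissues had in the plexus values was not tested.

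Genes outside the list were ranked by likeness to Ttr over the arrays of a generation, with diet means removed and, for each gene, the probe most like Ttr. Ttr itself had rank 1. Likeness was the correlation coefficient, used here to rank only. In F1, among 16176 genes, the closest were Bhmt (rank 5, slope 0.55), Pla2g5 (rank 8, 0.48), Lmx1a (rank 9, 0.39), Steap2 (rank 13, 0.10) and Krt18 (rank 15, 0.48). They were followed by Slco1a5, Tex22, Ins1, Inmt and Defb11. In F2, among 13960 genes and over 11 samples, the closest were Antxr1 (rank 3, slope 0.08), Pla2g5 (rank 7, 0.52), Scube3 (rank 10, 0.24), Folr2 (rank 11, 0.25) and Krt18 (rank 14, 0.55). After them came Trpm3, Slc39a4, Rdh5, Cfap126 and Slc37a2. Pla2g5 and Krt18 were thus among the closest 10 in both generations. Of the 50 genes ranked next after Ttr, 18 were on the plexus list in F1 and 18 in F2, where 33 and 25 of its other genes met the condition on background.

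Further probes existed for 14 of the 34 genes, 15 probes in all, and those with another call or a clearly different range were as follows. The second probe of Prlr had a range of 2.57 over the 24 arrays, and that of Cldn2 5.07. Wider than the probes used were the second probes of Slc4a5 (8.11), F5 (6.58), Abca4 (6.55), Trpv4 (5.11) and Sulf1 (4.57), all but that of Trpv4 near background on some arrays. That of Slc4a5 was wider than Ttr, so the order by range depends on the probe. The second probe of Folr1 had a range of 3.60 over the 24 arrays and was not called with Ttr in F1 (slope 0.09, FDR 0.327). The second probe of Col8a2 was called in neither generation (FDR 0.208 and 0.468), and its F2 diet difference was -0.11. The second probes of Sulf1 (FDR 0.407) and Trpv4 (FDR 0.191) were not called in F1, unlike the probes used. In the other direction, the second probes of Cldn2 (0.56, FDR 0.0218) and Abca4 (0.23, FDR 0.0620) were called in F1. For Cab39l, 1 of the 2 further probes was not called in F2 (FDR 0.107), and the F1 diet differences of both were -0.07 and 0.05.

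Because many of the genes vary together and Otx2 is a factor of this epithelium, their promoters were searched for the bicoid-type homeodomain motif that Otx2 binds, TAATCC, or its reverse complement GGATTA. The sequences are from RefSeq (GRCm38.p6), 300 bases around each transcription start, most of them upstream. Of the 35 genes, 28 had an entry, with 37 promoters in all, and Ttr, Clic6, Folr1, Enpp2, Sostdc1, Lbp and Sulf1 had none. The motif was in 4 of the 37 promoters (10.8%), 1 each of 4 genes, and in 2320 of 32851 promoters in the table (7.06%). The 4 genes were Otx2 (in 1 of 4 starts listed), Car14, Abca4 and Mfrp, which has no probe. The promoters of the 3 genes with values are shown because they hold these letters, with the motif in capitals: Otx2 at chr14:48665060-48665359 on the minus strand, Car14 at chr3:95904636-95904935 on the minus strand and Abca4 at chr3:122044210-122044509 on the plus strand. A match of letters describes the sequence and is not evidence of binding.
Otx2: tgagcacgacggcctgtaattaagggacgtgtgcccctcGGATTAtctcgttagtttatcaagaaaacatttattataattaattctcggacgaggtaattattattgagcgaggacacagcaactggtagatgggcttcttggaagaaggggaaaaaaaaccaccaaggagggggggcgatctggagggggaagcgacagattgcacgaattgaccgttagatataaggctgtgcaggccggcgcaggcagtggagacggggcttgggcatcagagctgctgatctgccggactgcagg
Car14: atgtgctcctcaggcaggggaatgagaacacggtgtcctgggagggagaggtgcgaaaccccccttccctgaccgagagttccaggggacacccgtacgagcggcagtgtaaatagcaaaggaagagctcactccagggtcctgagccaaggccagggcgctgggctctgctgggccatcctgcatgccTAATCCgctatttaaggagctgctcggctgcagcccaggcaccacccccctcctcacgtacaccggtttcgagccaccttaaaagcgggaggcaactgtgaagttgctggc
Abca4: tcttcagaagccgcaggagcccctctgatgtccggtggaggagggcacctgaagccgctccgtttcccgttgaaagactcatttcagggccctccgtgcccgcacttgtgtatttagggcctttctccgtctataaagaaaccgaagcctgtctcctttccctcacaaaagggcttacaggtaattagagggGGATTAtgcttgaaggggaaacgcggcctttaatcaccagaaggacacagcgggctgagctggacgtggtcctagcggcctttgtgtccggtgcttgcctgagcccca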

How the data were processed

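The scanner files deposited by the authors hold, per spot, the background-subtracted processed signal intensity of Agilent Feature Extraction, and their headers name version 10.7.3.1 and scanner G2505C, which differ from the methods. Spots marked irregular were left out, repeated spots averaged, log2 taken and arrays quantile-normalized within a generation (all 24 together for ranges over them, mean levels, summed signals and the diet by generation fit), with no filter on dim probes. Limma 3.58.1 in R 4.3.3 was fitted over all probes with a false discovery rate threshold of 0.1, and the fits were tested on simulated data. MD F2 replicates 4 and 5 were counted as 1 sample, except in the F2 slide comparison, a departure from the plan of 12 F2 arrays. The members and lists were chosen with earlier results of these data known.

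Genes named are every member (12 in full, by range among those well above background on all arrays), members called in a comparison, the 10 other genes most like Ttr per generation, and those called or brightest on the marker lists. Ttr was also compared by exact permutation, and correlations used 1e+05 permutations. Alternatives were scaling to the 75th percentile or none, normexp (offset 50, on median signal because the files hold no mean signal), a filter on dim probes, irregular spots kept, the authors' table, the mean over a gene's probes, joint normalization, replicate or slide as a block, code or a sex measure as a term, and leaving out arrays.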

Additional observations from a re-analysis of the deposited data

Results flagged for a closer look

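In each group of samples, the highest and lowest sample of each gene was compared with the rest: a value is named here where its gap to the nearest sample took up more of the group's whole range than Dixon's 95% limit allows. Chance gives about 1 in 20 such sets, and 19 of 140 sets met the condition (136 of single genes, and 4 of the mean level over the genes, none of which met it). The genes vary together, so these are not 19 separate events.

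CD F1 replicate 4 was the lone lowest sample of its group for 9 genes. Its log2 signals were 11.10 for Ttr, where the other CD F1 arrays lay from 15.23 to 16.55, and 5.05 for Kcne2, where they lay from 8.81 to 9.76. It was at 7.55 for Clic6, 9.51 for Ecrg4, 4.82 for Slc4a5 and 7.09 for Aqp1. It was also at 15.29 for Enpp2, 6.35 for F5 and 6.97 for Col8a2.

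MD F2 replicate 2 was the lone highest sample of its group for 9 genes. Its log2 signals were 11.69 for Kcnj13, where the other MD F2 samples lay from 6.58 to 8.00, and 10.74 for Calml4, where they lay from 7.34 to 8.15. It was at 11.35 for Kl, 16.79 for Enpp2, 10.92 for Prlr and 10.85 for Trpv4. It was also at 9.90 for Steap1, 10.59 for Sulf1 and 12.26 for Cab39l.

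CD F1 replicate 6 was the lone highest sample of its group for Abca4, at 7.51, where the others lay from 4.46 to 5.58. The causes of these values were not tested.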

How the results depend on the processing

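Across the alternatives, 266 values that answer a comparison kept their direction or stayed within the limit set for a count, and 9 did not. Of the 266, 163 were counts of 0 that remained 0, which says little about stability. Of the other values, 421 stayed, 4 reversed and 89 moved, namely 87 numbers of probes called and 2 median slopes on Ttr in F1. The alternatives that treat the near-duplicate arrays differently were chosen after seeing the data. The cause of the differences below was not tested, except where fewer samples or further terms reduce what a fit can call.

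With a replicate block, arrays of 1 replicate number being paired and the merged MD F2 sample counting equally toward blocks 4 and 5, the number of genes called in relation to Ttr was 0 in F1 (19 without) and 0 in F2 (32 without), and limma gave 23 and 28 at unadjusted p under 0.05 (12.1% and 5.04% of probes). The 2 median slopes in F1 that moved were 0.51 with that block and 0.50 without the 2 arrays farthest from the median Ttr signal, against 0.33. With slide as a block 14 genes were called in F1 and 17 in F2, and with the code as a term 21 in F2. Leaving out 1 array at a time gave 9 to 19 in F1, lowest without MD F1 replicate 4, with 38 to 131 probes called. In F2 it gave 26 to 32, lowest without CD F2 replicate 4, with 112 to 356 probes. With all arrays 89 and 274 probes were called. With all arrays as separate samples the F2 code comparison called 1 gene, Msx1. The F2 slide comparison called 1 gene with the near-duplicates as 1 sample and 0 to 1 when leaving out each array, the 1 without MD F2 replicate 4. The median range over the 24 arrays was 3.42 with normexp, against 4.63 over the 34 genes otherwise, and 4.46 to 4.64 when leaving out each array.

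Signs reversed in 4 cases. The median F1 diet difference was -0.02 within slide 3. Within slide 5 the median F2 diet difference was 0.27 and that of Ttr 1.77. The only lh array of that slide was MD, so diet and code are mixed there. The F1 diet difference of Ttr was -0.35 without CD F1 replicate 4, within a range of -0.35 to 1.36 when leaving out each array.

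With a replicate block, limma called 0 genes in the diet comparisons, with 1 at unadjusted p under 0.05 in F1 (13.4% of probes), 28 in F2 (4.20%) and 28 in diet by generation (7.61%). The code comparison could not be fitted with that block, because the code follows the replicate number. Values near background limit the ranges, slopes and differences of the 8 genes that were not well above it on all arrays.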
